A study of Mus musculus with 35 samples.

Results

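The genes described here encode the heterogeneous nuclear ribonucleoproteins (hnRNPs) and the serine/arginine-rich (SR) proteins. The rule that chose them used names and no measured value, and was set with earlier results of these data known. Every gene whose symbol starts with Hnrnp, or is Srsf followed by a number, was taken, and 1 pseudogene name was left out. This gave 31 of the 38924 genes in the count table, 20 hnRNP genes and 11 SR genes, all annotated as protein-coding and spread over 16 chromosomes.

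The libraries are bulk RNA sequencing of CD8 T cells from C57BL/6 mice, gated as CD3e+CD8+CD44hiCD62Llo, which T cells carry after meeting antigen. The study compared such cells from brain and spleen, with and without 2 h of PMA (which switches on protein kinase C) and ionomycin (which lets calcium into the cell), a pair that bypasses the antigen receptor. Of 35 libraries, unstimulated brain cells gave 5 from young males, 6 from aged males and 5 from aged females, and stimulated brain cells gave 4 from aged males and 5 from aged females. Spleen cells came from aged males, 5 libraries unstimulated and 5 stimulated. Ages are labelled as young or aged, with no number, and nothing in the labels ties each replicate to an animal of its own, so the spread behind each p-value is that between libraries and may be technical. Titles are written with or without hyphens and end in a running number that restarts, which splits the libraries into 3 apparent sets whose meaning is not stated. One holds the unstimulated male brain libraries, another the stimulated male brain libraries, female brain without stimulation and female stimulated replicates 23 to 25, and the last all spleen libraries with stimulated female brain replicates 26 and 27. Spleen stimulation and age were compared within a set. Since the libraries are bulk, fewer cells expressing a gene and less RNA per cell cannot be told apart.

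Splicing of a transcript is directed by proteins that sit on exons and introns and recruit or repel the spliceosome. SR proteins carry RNA recognition motifs and a domain rich in arginine and serine, bind mostly exonic enhancers and favour inclusion of the exon they bind. hnRNP proteins coat nascent RNA and often act in the opposite sense, and members of both families also work in RNA export, stability and translation. In T cells such proteins control well-known switches, among them the variable exons of Ptprc (CD45), which Hnrnpll and Hnrnpl act on. Many of these genes also regulate their own level, since their transcripts hold poison exons or introns that are spliced in or kept when the protein is abundant.

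Promoter sequence was available from RefSeq (GRCm38.p6) for 29 of the 31 genes, all but Hnrnpll and Hnrnpul2. Their median GC content over the 250 bases upstream of the start was 65.2%, against 52.0% for all 27025 promoters of the same length. The CCAAT box, searched as CCAAT on both strands, stood in 15 of the 29 (51.7%) and in 34.46% of all promoters. The ETS-family core CCGGAAG, also on both strands, stood in 6 (20.7%: Hnrnpd, Hnrnpf, Srsf4, Srsf5, Srsf7 and Srsf11) and in 7.05% of all promoters. The AP-1 site TGANTCA was in 1 promoter, that of Hnrnpa1 (3.4%, against 6.87% of all), and the cAMP response element TGACGTCA was in 0 of 29, against 1.62%. The windows below are shown because Hnrnpc, Srsf3, Srsf7 and Hnrnph1 rose in stimulated spleen under each of the 3 scalings tried, and because that of Hnrnpa1 holds 3 CCAAT boxes; the window of Hnrnpdl, which rose likewise, falls inside its annotated gene and is not shown. Each gives 100 bases just upstream of the gene, read 5′ to 3′ on the gene's strand, with CCAAT boxes in capitals (ATTGG where the box lies on the other strand).
Hnrnpa1 (chr15:103240297-103240396, plus strand): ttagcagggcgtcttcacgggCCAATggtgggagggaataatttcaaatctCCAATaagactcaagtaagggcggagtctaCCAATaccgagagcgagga
Hnrnpc (chr14:52104029-52104128, minus strand): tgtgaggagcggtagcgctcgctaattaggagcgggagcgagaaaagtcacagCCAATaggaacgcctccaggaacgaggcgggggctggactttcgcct
Srsf3 (chr17:29032528-29032627, plus strand): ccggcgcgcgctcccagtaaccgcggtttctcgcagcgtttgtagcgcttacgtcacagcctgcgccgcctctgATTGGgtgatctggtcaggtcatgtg
Srsf7 (chr17:80207308-80207407, minus strand): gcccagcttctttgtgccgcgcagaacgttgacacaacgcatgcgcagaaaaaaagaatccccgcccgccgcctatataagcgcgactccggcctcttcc
Hnrnph1 (chr11:50376890-50376989, plus strand): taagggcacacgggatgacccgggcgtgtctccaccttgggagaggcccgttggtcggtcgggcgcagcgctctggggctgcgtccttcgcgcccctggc
The Hnrnpc and Srsf3 windows hold 1 CCAAT box each, and those of Srsf7 and Hnrnph1 hold neither motif. Srsf7 carries its ETS core, and Hnrnph1 its CCAAT box, farther upstream. A match is a description of the sequence, not a measured binding site.

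The stimulated brain libraries stood apart from all others. Mitochondrially encoded genes took 38.5% to 69.7% of their counts, against 8.3% to 20.8% in the other libraries, and 2271 to 6769 genes were detected in them, against 6456 to 15174. Their totals ran from 1.16 to 9.2 M counts, and those of the other libraries from 6.65 to 24.97 M. The summed level of 9 CD8 T cell markers was 177 to 1278 CPM in them (counts scaled to a common library total), 2941 to 4758 CPM in stimulated spleen and 4974 to 7981 CPM in the unstimulated groups; no marker was at 0 throughout a group. The summed level of 9 markers of neurons, glia and choroid plexus was 184 to 698 CPM in stimulated and 52.3 to 106 CPM in unstimulated female brain. In aged males it was 79.5 to 1021 CPM stimulated and 64.5 to 681 CPM unstimulated. Of these 9, 2 were at 0 throughout stimulated female brain and 5 throughout stimulated male brain. Their part in the results on splicing genes was not tested. Results that rest on stimulated brain are therefore given last.

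Levels between genes were compared in TPM, a share of each library that corrects for length. Hnrnpk, an RNA-binding protein of cytosine-rich sites, had the highest mean over the 35 libraries, followed by Hnrnpa3, Hnrnpu, a nuclear scaffold protein, Hnrnpf, Hnrnpa2b1 and Hnrnph1. Among SR genes Srsf11 (mean 254 TPM over the libraries) and Srsf5 (235 TPM) stood highest. Hnrnpll (10.8 TPM), Hnrnpa0 (8.86 TPM) and Srsf12 (0.099 TPM) stood lowest, and Srsf12 had at most 14 counts in any library. The unstimulated and stimulated spleen libraries placed Hnrnpa3 first and Hnrnpk second by median, and the 3 unstimulated brain groups placed Hnrnpk first and Hnrnpa3 second.

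Hnrnpk lay at 1243 to 1435 TPM in unstimulated spleen (median 1283), 1132 to 1316 in stimulated spleen (1290), 1451 to 1780 in young male brain (1716), 853 to 3976 in aged male brain (1335) and 1624 to 2130 in aged female brain (1951). The order of these medians separated poorly, since the aged male brain libraries spanned those of every other unstimulated group. Hnrnpf, a binder of G-rich runs, had medians of 565, 566, 605 and 607 TPM in unstimulated spleen, young male, aged male and aged female brain, with overlapping libraries. In stimulated spleen Hnrnpf was 255 to 335 TPM, below every unstimulated spleen library (458 to 578). TPM is a share of each library, as is a count scaled by the library total. Spleen libraries were tight and brain libraries wide for the other abundant genes too. Hnrnpa3 ran from 1341 to 1474 TPM in unstimulated spleen and from 191 to 1710 in unstimulated aged male brain, and Hnrnpu from 424 to 533 and from 164 to 489 in the same groups. Hnrnpa2b1, which sorts and packages RNA, ran from 364 to 437 TPM in unstimulated spleen, 312 to 450 in stimulated spleen, 201 to 671 in young male, 196 to 605 in aged male and 461 to 708 in aged female brain. Hnrnph1 ran from 199 to 244 TPM in unstimulated spleen and from 286 to 358 in stimulated spleen, with no overlap, and from 121 to 676 over the unstimulated brain groups. In stimulated brain the medians of these 6 genes lay below the unstimulated medians of the same sex, with wide ranges: Hnrnpk had 0 to 756 TPM in males and 227 to 1734 in females, and Hnrnpf 0 to 2.39 in males and 0 to 257 in females. Scaled on the bulk of genes instead, Hnrnpu (log2 1.25 ± 0.81 SE) and Hnrnpa2b1 (0.59 ± 0.81) lay above 0 in males and were not called. The others of the 6 lay below 0 in males, and all 6 did in females.

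**Figure D1:**
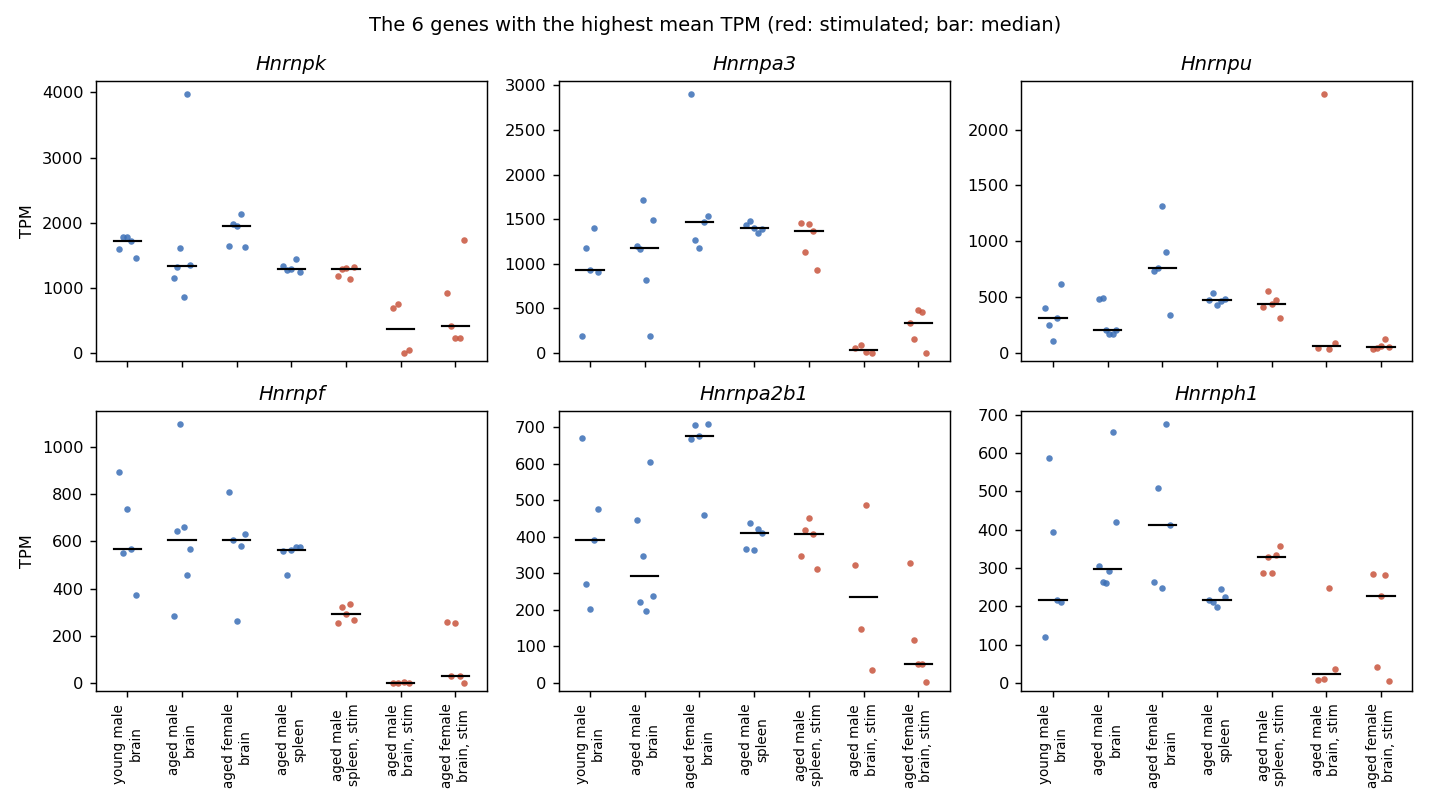
TPM of the 6 most abundant genes in each library (points, red where stimulated) by group, with the group median as a bar. Spleen libraries lie close together, unstimulated brain libraries spread more widely, and the medians of stimulated brain lie below those of unstimulated brain of the same sex, with 1 stimulated male brain library at 2322 TPM for Hnrnpu. TPM is a share of each library, so these medians do not give the direction relative to the bulk of genes.

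The summed level of the 31 genes was 9982 to 11482 CPM in unstimulated spleen, 8661 to 10346 in stimulated spleen, 9864 to 11035 in young male, 9453 to 12170 in aged male and 11960 to 15221 in aged female brain. In stimulated brain it was 1951 to 11176 CPM in males and 3509 to 7095 in females. With mitochondrial genes left out of the total, stimulated male brain gave 6001 to 18164 CPM, on both sides of the 10452 to 13487 CPM of unstimulated aged male brain. Stimulated female brain then gave 8690 to 14628 CPM against 13710 to 16631 CPM unstimulated, so most of its libraries stayed below.

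In spleen, about as many of these genes passed the test after stimulation as did not, and those that passed were higher relative to the bulk of genes. By edgeR's quasi-likelihood test with Benjamini-Hochberg adjustment and TMM scaling, 16 of the 30 genes tested were higher after PMA and ionomycin and 0 were lower, while 18.7% of the 11107 genes tested were called, 12.6% higher and 6.12% lower. The median log2 fold change was 0.49 over the family and -0.07 over all genes. The libraries of the groups did not overlap for 16 genes, all higher (10.3% of all genes tested did so upward and 6.91% downward). These comprised Hnrnph2, which did not pass the test (log2 0.43 ± 0.15 SE, adjusted p = 0.065), and the genes called except Srsf2. Srsf12 was too low to be tested. Leaving out 1 library at a time gave 14 to 17 calls. When all 35 libraries were fitted together, so that spleen took on a spread estimated with brain, 0 genes of the family passed (1 had an unadjusted p under 0.05), of 53 genes in all.

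The direction of the smaller changes depends on the scaling. The 20 most abundant genes took 31.3% to 38.5% of counts in stimulated and 22.4% to 27.4% in unstimulated spleen, and TMM, which scales on the bulk of genes, gave factors of 0.674 to 0.859 and 1.218 to 1.321. With library totals alone, an alternative added after the data were seen, the median of all genes moved from -0.07 to -0.72 and that of the family from 0.49 to -0.16. A change of scaling moves all genes by nearly the same amount, so the gap between them, 0.56 under either scaling, could not change much. Under library totals 5 genes passed the test as higher, Hnrnpdl, Srsf7, Hnrnph1, Hnrnpc and Srsf3, and 10 passed as lower, where 4.71% of all genes tested were called higher and 39.2% lower. Calls of a rise for the other 11 genes therefore hold relative to the bulk of genes, and not as a share of all counts.

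**Figure D2:**
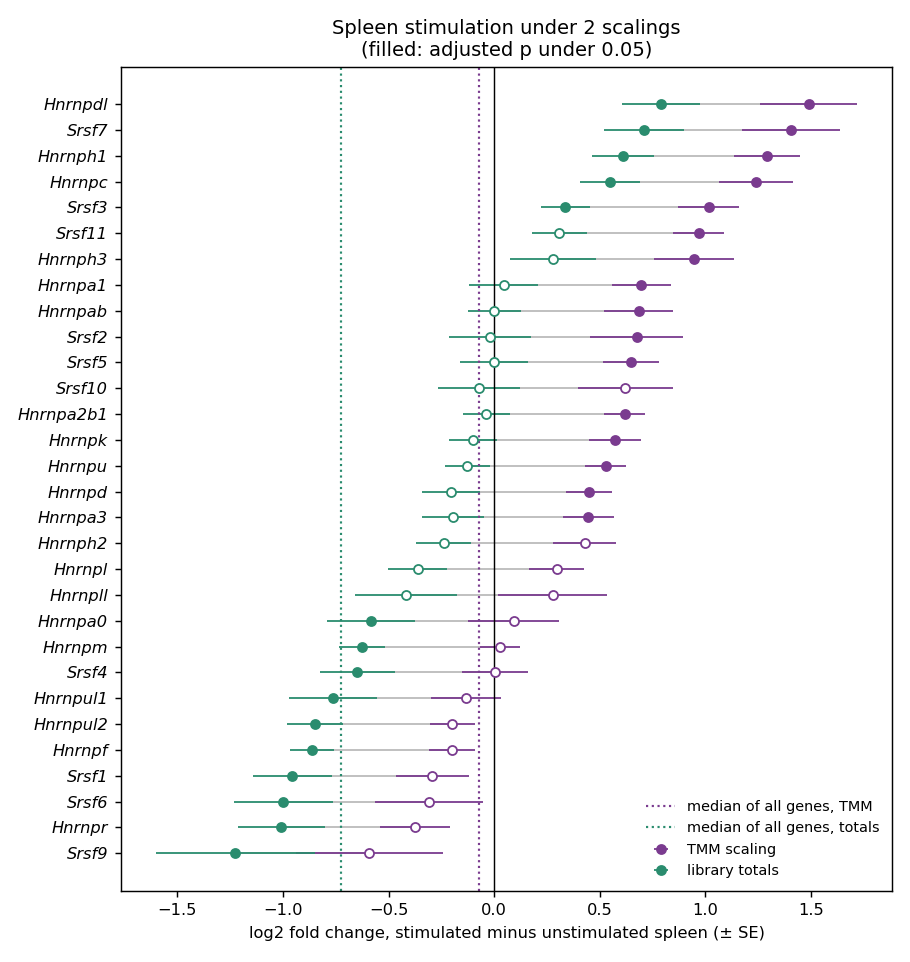
log2 fold changes (stimulated minus unstimulated spleen, ± SE) of the 30 genes tested with TMM scaling and with library totals, filled where the adjusted p is under 0.05; dotted lines mark the median of all genes under each scaling. All genes shift together, and 5 genes stay above 0 and past the threshold under both.

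Hnrnpdl, a relative of Hnrnpd (AUF1), changed by the largest factor. It measured 103, 98.4, 111, 91.7 and 99.0 TMM-scaled CPM in unstimulated replicates 30 to 34, and 296, 274, 169, 204 and 469 CPM in stimulated replicates 36 to 40. Every stimulated library lay above every unstimulated one (2.81-fold, log2 1.49 ± 0.23 SE, adjusted p = 0.00068). With library totals the log2 change was 0.79 (adjusted p = 0.005). Hnrnpc, which binds uridine tracts and blocks cryptic exons, rose from 238, 253, 242, 302 and 245 CPM to 556, 631, 427, 519 and 889 CPM. That is 2.36-fold (log2 1.24 ± 0.18 SE, adjusted p = 0.00037), and 0.55 on the log2 scale with library totals (adjusted p = 0.0084). Hnrnph1, a binder of G-runs, rose 2.45-fold, from 224, 195, 206, 280 and 213 CPM to 485, 504, 430, 588 and 727 CPM. Its log2 change was 1.29 ± 0.16 SE (adjusted p = 0.00011), and 0.61 with library totals (adjusted p = 0.0054). For all 3 genes the groups did not overlap, and stimulated replicate 40 was the highest library.

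Of the hnRNP H family, Hnrnph3 stood at 29.2, 34.1, 30.3, 56.1 and 40.1 CPM unstimulated and 79.3, 80.8, 65.8, 69.4 and 70.5 CPM stimulated (log2 0.95 ± 0.19 SE, adjusted p = 0.0036). Hnrnpf, also of this family, was 534 to 669 CPM stimulated and 623 to 783 unstimulated (log2 -0.20, adjusted p = 0.23). With library totals Hnrnph3 no longer passed (log2 0.28, adjusted p = 0.27), and Hnrnpf passed as lower (log2 -0.86, adjusted p = 8.7e-05). The log2 changes of these relatives thus lay on opposite sides of 0 under both scalings.

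The remaining hnRNP genes called higher under TMM changed less. Hnrnpa1, the abundant splicing repressor, measured 289, 334, 345, 374 and 315 CPM unstimulated and 700, 460, 590, 453 and 480 CPM stimulated, a log2 change of 0.70 ± 0.14 SE (adjusted p = 0.0039) that was 0.05 with library totals (adjusted p = 0.83). Hnrnpab (log2 0.68), Hnrnpa2b1 (0.62), Hnrnpk (0.57), Hnrnpu (0.53), Hnrnpd (0.45) and Hnrnpa3 (0.45) passed with adjusted p-values of 0.00084 to 0.02, with no overlap between groups. With library totals their log2 changes lay between -0.20 and 0.00, and none passed. Hnrnpa3 lost the call without unstimulated replicate 30, 32 or 33 (log2 0.41 to 0.43). Hnrnpm (log2 0.03), Hnrnpa0 (0.09), Hnrnpul1 (-0.13), Hnrnpul2 (-0.20) and Hnrnpr (-0.37) did not pass with TMM, and passed as lower with library totals (log2 -0.58 to -1.01). Hnrnpl (log2 0.30) and Hnrnpll (0.28), the regulators of Ptprc exons, passed with neither scaling, although Ptprc itself was higher with TMM (log2 0.50 ± 0.09 SE, adjusted p = 0.0017) and not with library totals (log2 -0.15).

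SR genes did not all move the same way. Srsf7, an SR protein that shuttles between nucleus and cytoplasm, measured 49.5, 49.2, 48.6, 37.96 and 49.6 CPM unstimulated and 129, 108, 86.8, 86.8 and 210 CPM stimulated. It rose 2.65-fold (log2 1.41 ± 0.23 SE, adjusted p = 0.0011), and by 0.71 on the log2 scale with library totals (adjusted p = 0.01). Srsf3, its close relative and an adaptor for mRNA export, rose 2.02-fold, from 185, 184, 185, 188 and 210 CPM to 378, 408, 341, 287 and 511 CPM (log2 1.02 ± 0.15 SE, adjusted p = 0.00041; 0.34 and adjusted p = 0.031 with library totals). Srsf11 followed, from 142, 158, 181, 172 and 183 CPM to 384, 337, 271, 317 and 327 CPM (log2 0.97 ± 0.12 SE, adjusted p = 0.00016), and missed the threshold with library totals (log2 0.31, adjusted p = 0.066). For these 3 genes no stimulated library overlapped an unstimulated one.

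Srsf5 (log2 0.65, adjusted p = 0.0046) and Srsf2 (log2 0.67, adjusted p = 0.049), the SC35 protein of nuclear speckles, also passed with TMM. Their changes were -0.002 and -0.02 on the log2 scale with library totals, and Srsf2 lost the call in 8 of the 10 fits that left out 1 library, all but those without stimulated replicate 38 or 39, with log2 0.46 without stimulated replicate 40. The other SR genes tested did not pass with TMM. Srsf1, the prototype of the family also known as SF2/ASF, had a log2 change of -0.29 ± 0.17 SE, Srsf6 of -0.31 ± 0.25, Srsf9 of -0.59 ± 0.35, Srsf4 of 0.01 ± 0.16 and Srsf10 of 0.62 ± 0.22 (adjusted p = 0.072). With library totals Srsf1 (-0.96), Srsf6 (-0.999), Srsf9 (-1.23) and Srsf4 (-0.65) passed as lower. The change of Srsf3 and Srsf7 was above the median of all genes, and that of Srsf1, Srsf6 and Srsf9 was below it. This order is nearly the same under either scaling by construction, since all genes shift together.

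**Figure D3:**
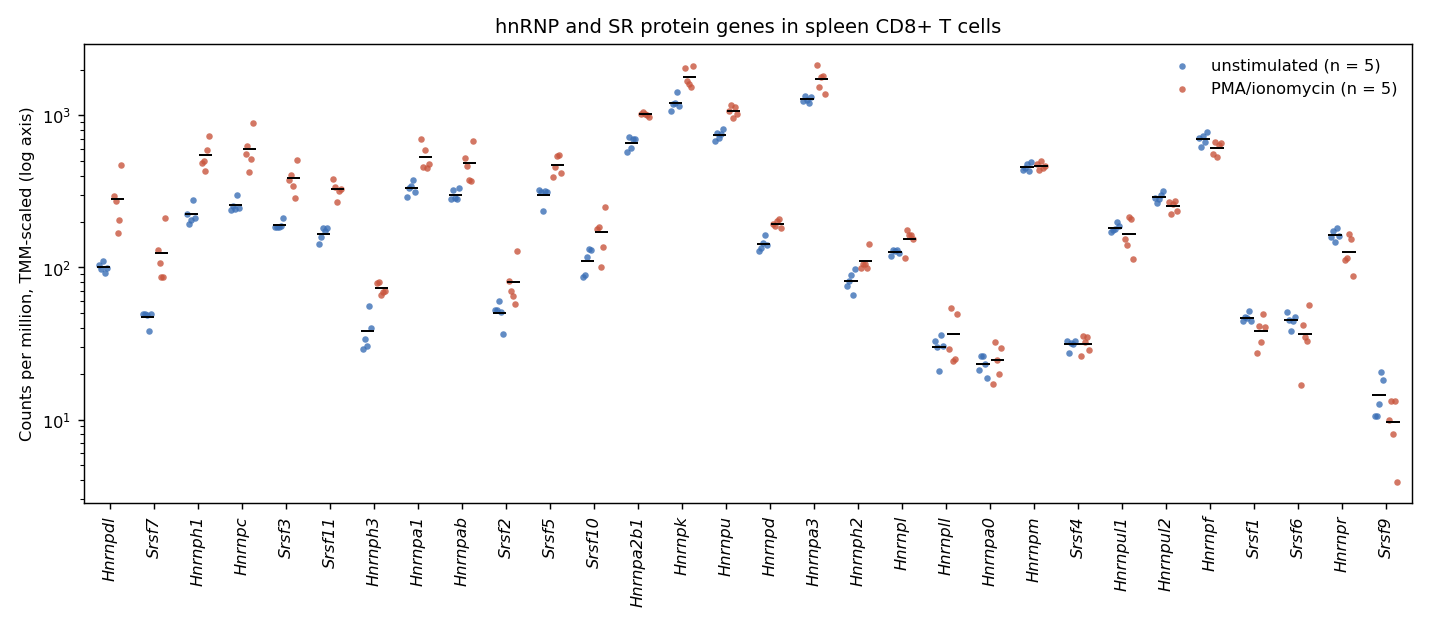
TMM-scaled CPM (log axis) of the 30 genes tested in unstimulated (blue) and stimulated (red) spleen libraries, 5 each, ordered by fold change, with group means as bars. At the left the groups separate, from Hnrnpdl at 100.6 against 282.4 CPM downward in fold change, and at the right they overlap.

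Genes that work with these proteins were taken as lists. Of SR-related and RS-domain proteins 14 of 21 were higher and 1 lower with TMM, and 2 were higher and 6 lower with library totals, a scaling under which 39.2% of all genes were called lower and 4.71% higher. Tra2a (log2 1.55 ± 0.26 SE) and Tra2b (1.21 ± 0.17), activators of exon inclusion, were higher under both scalings, and Rbm39 (0.94) under TMM; Rbm10 was lower under both (-0.80 and -1.45). Of hnRNP proteins under other symbols 7 of 13 were higher and 0 lower with TMM (1 higher and 4 lower with library totals), led by Ptbp1 (1.70 ± 0.19) and Ptbp2 (1.63 ± 0.43). Ptbp1, the polypyrimidine tract binding protein, was also higher with library totals (log2 1.01, adjusted p = 0.00047). Each log2 change here is stimulated minus unstimulated spleen.

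Of the kinases, import receptors and methyltransferases that modify these proteins, 5 of 12 were higher and 0 lower with TMM (2 higher and 7 lower with library totals). Clk1, a kinase that phosphorylates SR proteins in the nucleus, rose from 93.7 to 137 CPM across unstimulated spleen libraries to 1268 to 2252 CPM across stimulated ones (log2 3.78 ± 0.18 SE, adjusted p = 2.5e-08). Clk4 (log2 2.12 ± 0.13) rose as well, and Clk1 and Clk4 were higher with library totals too (3.10 and 1.46). Clk3 (1.21) passed with TMM alone. The core snRNP proteins moved less: 2 of 27 were higher, Sf3b1 (log2 1.32 ± 0.09, and 0.66 with library totals) and Prpf6 (0.39), and Prpf8 was lower (-0.50); with library totals 1 was higher and 17 were lower, against 39.2% of all genes lower. Of 8 other alternative splicing regulators 0 passed by edgeR with TMM, 2 had an unadjusted p under 0.05, and 4 were lower with library totals. List medians were 0.45 for SR-related proteins, 0.34 for hnRNP proteins under other symbols, 0.26 for the modifying enzymes, 0.05 for the other regulators and 0.02 for core snRNP proteins, against -0.07 for all genes.

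Beside these changes, 9 of 9 activation genes tested were higher in stimulated spleen, Egr1 among them (log2 7.88 ± 0.18 SE). The summed level of 5 B cell markers was 178 to 357 CPM in stimulated and 219 to 726 CPM in unstimulated spleen. With TMM 3 of these 5 were called higher and 0 lower, and 4 had log2 changes above 0. Cd79a and Ms4a1 were higher under both scalings. CD8 T cell markers had 1 of 9 higher and 1 lower with TMM. CD4 and regulatory T cell markers summed to 29.98 to 55.6 CPM unstimulated and 95.2 to 193 CPM stimulated, with 2 of 4 higher, Ctla4 and Cd40lg. Microglia and macrophage markers summed to 335 to 391 CPM unstimulated and 116 to 192 CPM stimulated. The mitochondrial share was 10.8% to 13.3% unstimulated and 14.8% to 20.8% stimulated, and 14750 to 15174 against 13729 to 14689 genes were detected. Their part in the results on splicing genes was not tested.

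Transcript make-up was examined through the mean transcript length per gene, weighted by estimated isoform abundance, which the authors deposited in bases; this measure was added after the data were seen. In spleen, genes were tested if they had at least 10 counts in every library and a length that varied between libraries. Of the family, 0 of 26 genes so tested passed (limma on log2 length, adjusted over 5571 genes, of which 0.126% passed). An unadjusted p under 0.05 was found for 6 of 26. Hnrnpa0, Hnrnpc, Hnrnpul2 and Srsf7 had enough counts and were left out because their length varied too little. Srsf10 read 1573, 1617, 1584, 1729 and 1494 bases unstimulated and 1235, 1196, 1031, 1105 and 760 stimulated (adjusted p = 0.18). Hnrnpm (2098 to 2333 against 1932 to 2084 bases) and Hnrnpa3 (1085 to 1106 against 948 to 1058) were also shorter in every stimulated library. Srsf9 was longer, at 569 to 759 against 765 to 1162 bases. Over all genes 1.31% were shorter and 0.556% longer with no overlap between groups.

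Between tissues, in unstimulated cells of aged males, 5 of the 30 genes tested were higher in brain than in spleen and 0 lower (edgeR, TMM; 7.37% of 11040 genes were called, 3.35% higher and 4.02% lower). They were Srsf2, Hnrnph1, Hnrnpa1, Hnrnpk and Hnrnpm. The family's median log2 difference was 0.50 and that of all genes 0.31. With library totals 0 passed (3 of 30 had an unadjusted p under 0.05, and DESeq2's test with its own scaling called 4), the median of all genes moved to -0.25 and that of the family to -0.04. Every call here is thus relative to the bulk of genes. With all 35 libraries fitted together 0 passed too, and brain and spleen belong to different title sets, so tissue cannot be told apart from whatever the sets are.

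Srsf2 measured 117, 622, 163, 152, 166 and 95.6 CPM in brain replicates 7 to 12 and 53.2, 53.6, 61.5, 51.7 and 37.0 CPM in spleen replicates 30 to 34, with no overlap (log2 2.09 ± 0.49 SE, adjusted p = 0.012). Brain replicate 8 stood far above the rest, and without it the log2 difference was 1.43. Hnrnph1 measured 609, 678, 617, 431, 369 and 647 CPM in brain and 228, 198, 210, 286 and 216 CPM in spleen, again with no overlap (log2 1.29 ± 0.22 SE, adjusted p = 0.0029). Srsf2 and Hnrnph1 kept their calls in each of the 11 fits that left out 1 library. Their differences with library totals were 1.45 (adjusted p = 0.076) and 0.72 (adjusted p = 0.064) on the log2 scale.

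Hnrnpm, which takes part in inclusion and skipping of many exons, measured 862, 674, 610, 891, 698 and 855 CPM in brain and 445, 463, 490, 440 and 499 CPM in spleen (log2 0.71 ± 0.17 SE, adjusted p = 0.013). Hnrnpk measured 1871, 5192, 1801, 2062, 1737 and 2264 CPM in brain and 1084, 1220, 1223, 1463 and 1179 CPM in spleen (log2 1.01 ± 0.26 SE, adjusted p = 0.024). Neither overlapped between tissues; over all genes 3.33% were higher and 7.16% lower in brain with no overlap, and of the family 4 were higher and 0 lower. Hnrnpa1 did overlap, at 1008, 916, 1161, 780, 245 and 527 CPM in brain against 294, 340, 351, 383 and 320 CPM in spleen (log2 1.195 ± 0.31 SE, adjusted p = 0.027). Leaving out spleen replicate 30 or 31 left 2 genes called, and leaving out 32, 33 or 34 left 3. Hnrnpa1 lost its call in 7 of 11 such fits (without any 1 spleen library, or without brain replicate 7 or 9; log2 1.03 to 1.23). Hnrnpk lost it in 4 (spleen replicates 30, 31, 32 and 34; 0.96 to 1.01) and Hnrnpm in 3 (30, 31 and 33; 0.67 to 0.69). Of the genes not called Hnrnpll had the largest difference (log2 1.66 ± 0.64 SE, adjusted p = 0.17), and Srsf9 was at the other end (-1.22 ± 1.14, adjusted p = 0.7).

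**Figure D4:**
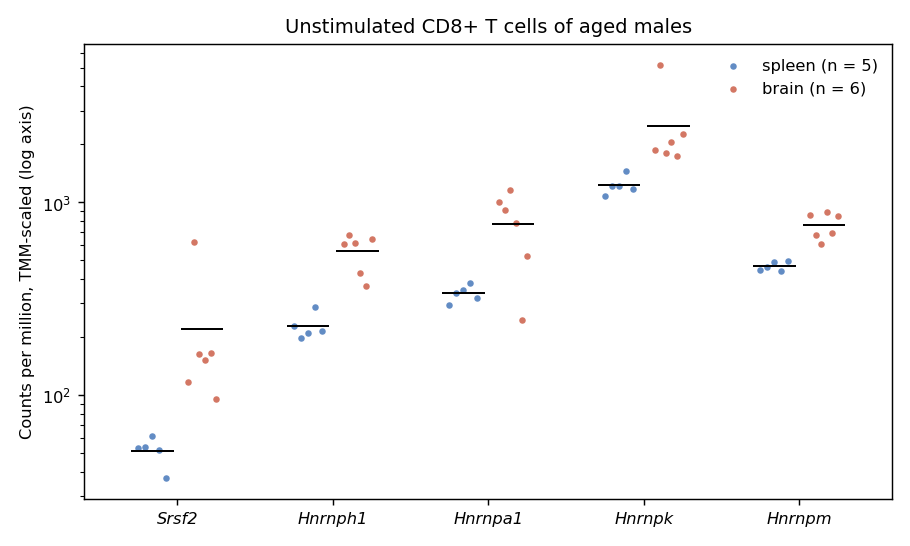
TMM-scaled CPM (log axis) of the 5 genes called between tissues, in 6 brain and 5 spleen libraries of unstimulated cells from aged males, with means as bars. Brain libraries lie above spleen for 4 genes, and 1 brain library of Hnrnpa1, at 245 CPM, lies below all spleen libraries.

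This comparison shares its unstimulated spleen libraries with the stimulation comparison above. Side by side, Hnrnph1 had a log2 difference of 1.29 in both, Srsf2 of 2.09 between tissues and 0.67 with stimulation, and Hnrnpa1 of 1.195 and 0.70. Of the lists, 1 of 12 modifying enzymes, 1 of 21 SR-related proteins and 0 of 27 core snRNP proteins were higher (4 of these 27 had an unadjusted p under 0.05). Clk1 (2.99 ± 0.28 SE, adjusted p = 1.2e-05), Tra2b (1.72 ± 0.25, adjusted p = 0.00078) and Pcbp2 (1.14), an hnRNP protein under another symbol, were higher in brain with TMM and with library totals. Of the 9 activation genes tested 5 were higher in unstimulated brain than in unstimulated spleen, Nr4a1 (log2 7.53), Egr1 (5.13), Fos (3.72), Cd69 (3.63) and Ifng (3.33). Markers of brain cells summed to 64.5 to 681 CPM in these brain libraries and 65.3 to 74.1 CPM in spleen; 1 of the 9, Mog, was at 0 throughout the brain group. Microglia and macrophage markers summed to 182 to 850 CPM in brain and 335 to 391 CPM in spleen, with Aif1 and Trem2 at 0 in brain. B cell markers summed to 0.4 to 28.9 CPM in brain and 219 to 726 CPM in spleen, and 3 of 9 CD8 T cell markers, Cd8a, Cd3g and Cd2, were higher in brain. Their part in these differences was not tested.

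In unstimulated brain none of these genes was called for age or sex by edgeR's main test. Between aged and young male brain 0 of 30 passed with edgeR (0% of 8068 genes were called, 374 of them with an unadjusted p under 0.05), DESeq2 (72 genes called) or limma voom, and 1 of 30 had an unadjusted p under 0.05 with edgeR. That gene was Hnrnpc, at 196 to 1144 CPM (median 475) in young and 150 to 430 CPM (median 236) in aged males (log2 -1.08 ± 0.43 SE, adjusted p = 0.99). The family's median was -0.21 and that of all genes -0.08. Between aged female and male unstimulated brain 0 of 30 passed with any of the 3 tools (0.15% of 8691 genes were called), and 2 had an unadjusted p under 0.05. These were Hnrnpul2 (log2 -1.09 ± 0.43 SE) and Hnrnpu (0.56 ± 0.26), with overlapping libraries. The medians were -0.06 for the family and -0.29 for all genes. Brain libraries spread widely, so 0 calls here do not show that levels were alike, and sex cannot be told apart from the title sets.

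In stimulated female brain the genes were unevenly detected. Against unstimulated female brain 1 of 30 was higher and 0 lower (edgeR, TMM; 6.09% of 6305 genes were called, 1.92% higher and 4.17% lower), and the medians were -0.21 for the family and -0.41 for all genes. The gene was Hnrnpa0, a low-abundance relative of Hnrnpa1 that binds AU-rich elements. It measured 7.57, 9.995, 0.422, 8.55 and 9.56 CPM in replicates 13 to 17 and 41.2, 219, 125, 110 and 266 CPM in stimulated replicates 23 to 27 (log2 4.39 ± 1.21 SE, adjusted p = 0.043), with no overlap. The call was lost in 9 of the 10 fits without 1 library (all but that without replicate 23, log2 3.98 to 4.52 in the others). It was also lost with library totals, where 0 genes of the family were higher and 2 lower. Over all 6305 genes, 50 were then higher and 472 lower. Hnrnpa3 was lower in every stimulated library and did not pass (log2 -1.16 ± 0.78 SE, adjusted p = 0.55). Srsf11 did not overlap either, at 105 to 218 against 290 to 955 CPM, and did not pass (log2 1.85 ± 0.58 SE, adjusted p = 0.087). Over all genes 3.82% were higher and 9.55% lower with no overlap. With replicates 26 and 27, whose titles have no hyphens, left out, 0 passed. Of 3 markers of neurons, glia and choroid plexus tested in this comparison, 2 were higher and 0 lower, and their part was not tested.

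In stimulated male brain several genes of the family had no counts. Leaving Srsf12 aside, 18 genes had 0 counts in at least 1 of the 4 libraries, against 0 in unstimulated aged male brain and in spleen, and 3 had 0 counts in all 4. These were Hnrnpr, Srsf10 and Hnrnph3. They are 3 of the 30 family genes tested against unstimulated aged male brain. Over all 7540 genes tested there, 2187 had 0 counts in all 4 libraries. Hnrnpr had 548 to 8704 counts in unstimulated aged male brain libraries, so its level was at least 763-fold lower, against a floor of 3 counts over the group. On the same terms Srsf10 was at least 739-fold and Hnrnph3 at least 197-fold lower. Against stimulated spleen the bounds were at least 447-fold for Hnrnpr, 618-fold for Srsf10 and 264-fold for Hnrnph3. These floors cover counting error only, and reads of genes with processed pseudogenes, such as Hnrnpa1 and Hnrnpa3, may be divided among copies by the authors' counting.

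Loss was not uniform. Hnrnpa1 had 0, 0, 2 and 0 counts in replicates 19 to 22 and Hnrnpf had 3, 0, 16 and 3, where unstimulated aged male brain libraries had at least 4100 and 9829. In the same libraries Hnrnpa2b1 had 6009, 1114, 5162 and 97 counts, Hnrnpu 1928, 8803, 647 and 567, and Hnrnpc 22100, 975, 200 and 282. Hnrnpk, highest by mean TPM, had 5840, 2135, 0 and 37. Which genes were present differed from library to library: Srsf3 had 2917 counts in replicate 19 and 0 in the other 3, and Srsf7 had 6442, 0, 0 and 140.

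By test, 6 of the 30 were lower than in unstimulated male brain, Hnrnpa1, Hnrnpf, Hnrnpr, Srsf10, Hnrnph3 and Hnrnpa3, and 0 higher, where 38.1% of 7540 genes were called, 36.4% lower and 1.75% higher. All but Hnrnpa3 passed the count filter only through the unstimulated libraries, so they could only be called lower, and likewise against stimulated spleen. With at least 10 counts required in every library, 2 of 10 family genes were higher and 0 lower (75 of 494 genes higher and 28 lower). The groups did not overlap for 6 genes, all lower (34.5% of all genes did so downward and 2.19% upward); they included Hnrnpk, which did not pass (log2 -1.87 ± 1.24 SE, adjusted p = 0.27), and not Hnrnpa3. The medians, with genes at 0 set to their bounds, were -1.003 for the family and -2.61 for all genes. Without replicate 19, 10 of 30 were called, where 2884 of 8700 genes were called over all. Hnrnpa3 (log2 -3.45 ± 1.21 SE, adjusted p = 0.033, with 1199, 447, 21 and 3 counts) lost its call in 6 of 10 fits that left out 1 library. Its log2 change was -4.07 without replicate 19. Against stimulated spleen, a comparison that shares the stimulated brain libraries, the same 6 were lower and Srsf2 and Hnrnpa0 higher (48.5% of 9135 genes were called, 46.7% lower and 1.82% higher, and 53.3% were lower and 1.3% higher with no overlap). Srsf2 measured 332, 294, 415 and 61.8 CPM in stimulated brain and 54.6, 46.8, 42.3, 37.98 and 83.8 CPM in stimulated spleen (log2 2.38 ± 0.71 SE, adjusted p = 0.019), and lost the call without spleen replicate 39 (log2 2.23). Hnrnpa0, at 133, 42.3, 109 and 16.7 against 11.4, 21.7, 16.03, 13.1 and 19.3 CPM (log2 2.204 ± 0.77 SE, adjusted p = 0.039), lost it in 6 of 9 such fits. Without spleen replicate 39, 5 genes were called, and without brain replicate 19, 12, with shares over all genes not reported here. With library totals 0 were higher.

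Responses to stimulation differed between brain and spleen of aged males for 7 genes, all lower in brain by the interaction test: Hnrnpa1, Hnrnpr, Srsf10, Hnrnpf, Hnrnph3, Hnrnpa3 and Hnrnph1 (35.7% of 12117 genes were called lower and 2.1% higher). The first 5 named were at or near 0 counts in stimulated brain and entered this test only through the other groups. Without brain replicate 19 it was 13 genes, with the share over all genes not reported here. Hnrnph1 had 36, 36, 757 and 27 counts in stimulated brain (log2 difference of responses -3.50 ± 1.07 SE, adjusted p = 0.014), and its difference was -6.11 without replicate 21, the library with 757. Hnrnpa1, Hnrnph3, Hnrnpa3 and Hnrnph1 are genes whose calls were higher in stimulated spleen, the first 3 being called lower in stimulated male brain. For these 3 the rise in spleen did not pass with library totals. Between the sexes in stimulated brain 0 of 25 genes tested passed with edgeR (0% of 3159 genes), and 2 had an unadjusted p under 0.05. DESeq2 called 2 and limma voom 0, with shares over all genes not reported here. Stimulated and unstimulated male brain belong to different title sets, and the stimulated brain libraries differ in depth and mitochondrial share, so stimulation cannot be told apart from these.

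**Figure D5:**
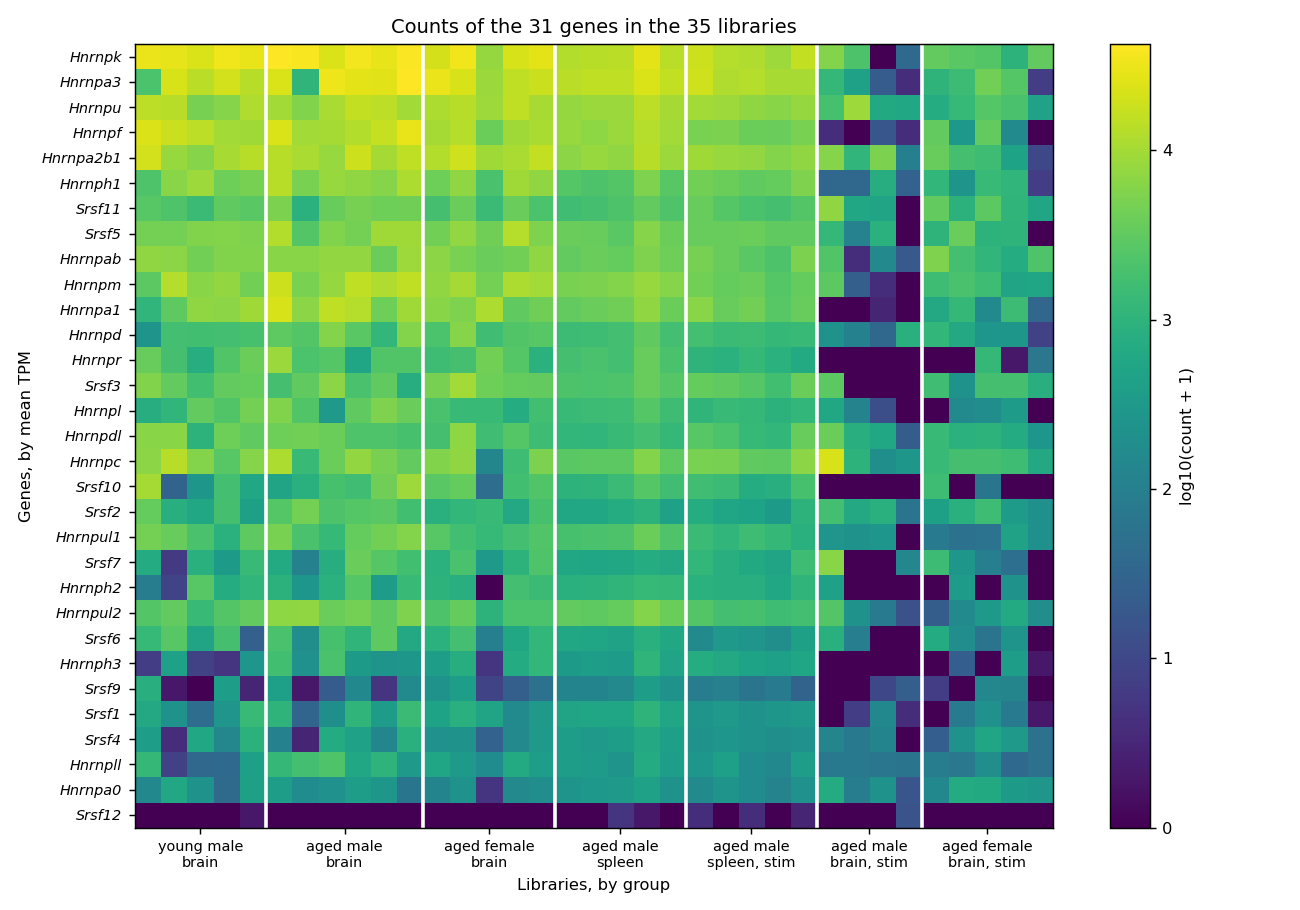
Counts (log10 of count + 1) of the 31 genes, ordered by mean TPM, in the 35 libraries by group. Dark cells are at or near 0 and gather in the stimulated brain groups, at different genes in different libraries, and Srsf12 is dark throughout.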

How the data were processed

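For the 35 bulk RNA-seq libraries the submitters' processing notes name Bowtie2 2.2.0, RSEM 1.2.12 and mm10; the annotation release and strand setting were not stated. The authors deposited a table of raw counts for the whole series. Per the file headers, the authors' RSEM output holds, for each library, the expected count, TPM, FPKM and the abundance-weighted transcript length of each gene. These expected counts, rounded, match the count table (largest difference 0.5). RSEM divides reads of near-identical copies by estimation. FPKM was not used.

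The counts were tested with edgeR 4.0.16 (quasi-likelihood, TMM within each comparison, genes kept by filterByExpr with a minimum count of 10, Benjamini-Hochberg adjustment over all genes tested, threshold 0.05), in R 4.3.3 with limma 3.58.1 and DESeq2 1.42.0 for alternatives. CPM uses the comparison's TMM factors, except summed levels, which use library totals. Length was tested with limma on the log2 scale. Totals ran from 1.16 to 24.97 M counts. Within each group no 2 libraries agreed within counting noise (lowest chi-square per degree of freedom 13.0), and pairs across groups were not compared. The count tests were tried on simulated counts with set log2 changes of 1 and 2. For spleen stimulation 32.3% and 67% of these were recovered. For unstimulated tissue it was 0% and 3.3%, and for age 0% and 1%. For both sex comparisons, both brain stimulation comparisons and stimulated tissue it was 0% at either size. Unchanged genes called numbered 5 for spleen stimulation, 1 for female brain stimulation and 0 in the other comparisons simulated. Only a small part of the genes was changed, which makes the adjusted threshold stricter than in comparisons with many calls. Recovery there may thus be understated. Few or 0 calls in comparisons with brain libraries thus do not show that levels were alike. The interaction was not simulated.

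The genes and lists were chosen with earlier results of these data known. Values are given for members past the threshold, up to 8 per direction by size of change in spleen and up to 5 elsewhere, for the 6 members of highest mean TPM, for those that reverse between comparisons, and for up to 3 genes per list and direction. Alternatives were another scaling, test, filter or set of libraries, and each library left out. Python 3.11.15, pandas 2.3.3, numpy 2.4.6, scipy 1.17.1 and matplotlib 3.10.9 were used. Gene positions follow GENCODE M21 on GRCm38. Results for some list genes are not reported here.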

Additional observations from a re-analysis of the deposited data

Results flagged for a closer look

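In 77 sets of values examined, each 1 measure in 1 group of 4 to 6 libraries, 14 held a highest or lowest library far from its neighbours. The rule used gives about 1 in 20 for independent sets of normally distributed values. These sets share libraries and were not taken to a log scale, so 14 cannot be set against that rate. Aged male brain replicate 8 stood out for Hnrnpk (3976.44 TPM, and 5192 TMM-scaled CPM in the tissue comparison) and Srsf2 (622 CPM). Aged female brain replicate 13 stood out for the summed level of the 31 genes (15221 CPM) and for Hnrnpa3 (2904.69 TPM). Also in unstimulated female brain, replicate 16 was low for Hnrnpa2b1 (460.55 TPM) and replicate 15 for Hnrnpa0 (0.422 CPM).

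In stimulated brain, male replicate 20 stood out for Hnrnpu (2322.47 TPM), male replicate 21 for Hnrnph1 (247.89 TPM) and female replicate 26 for Hnrnpu (121.17 TPM). In unstimulated spleen, replicate 31 was low for Hnrnpf (458.48 TPM), replicate 33 low for Srsf7 (37.958 CPM) and high for Hnrnpc (301.749 CPM), and replicate 34 high for Srsf3 (210.483 CPM).

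The response to stimulation differed between brain and spleen of aged males for 7 of 30 genes by edgeR's interaction test. Over all 12117 genes tested, 37.8% were called, 35.7% lower in brain. Adjusted p-values by this test were 0.014 for Hnrnph1, 0.01 for Hnrnpa3, 6.5e-06 for Hnrnpf, 3.9e-07 for Hnrnpa1, 1.9e-05 for Hnrnph3, 3.6e-06 for Hnrnpr and 4.2e-06 for Srsf10. Hnrnpf, Hnrnpa1, Hnrnph3, Hnrnpr and Srsf10 were at or near 0 counts in stimulated male brain and entered this test only through the other groups. Stimulation of male brain cannot be told apart from title set, depth and mitochondrial share.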

How the results depend on the processing

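No paired analysis was possible because no replicate number occurs in more than 1 group. Counts of the family called are given per setting, and where they moved the cause was not tested. With all 35 libraries fitted together, 0 passed for spleen stimulation (53 genes in all, against 2080) and 0 for unstimulated tissue (641 of 12956 genes called). For sex in stimulated brain it was 6, with the share over all genes not reported here. Requiring each library to hold 10 counts of a gene gave 2 for unstimulated tissue, male brain stimulation, stimulated tissue and the interaction, from far fewer genes tested. These 2 were higher in the first 3, where male brain stimulation had 6 lower and 0 higher before. In the interaction 1 was higher and 1 lower. Genes with few counts in stimulated brain drop out by construction. With this filter 245 of 4168 genes, and 2 of 28 in the family, were called for unstimulated tissue. For male brain stimulation it was 103 of 494 genes and 2 of 10. Limma voom gave 4 for female brain stimulation, 2 higher and 2 lower, where 1360 of 6305 genes were called. It gave 14 for male brain stimulation, all lower, where 3240 of 7540 genes were called. For stimulated tissue it gave 16 and for the interaction 14, with shares over all genes not reported here. DESeq2's test gave 3 for female brain stimulation (878 of 6305 genes called) and 2 for sex in stimulated brain (share over all genes not reported here). With no low-count filter 0 passed for female brain stimulation (704 of 16344 genes called) and 5 for stimulated tissue (share over all genes not reported here). With library totals, added after the data were seen, 0 passed for unstimulated tissue (654 of 11040 genes called). For female brain stimulation 2 then passed, both lower (522 of 6305 genes called). With hyphenated titles only, under TMM, 0 passed for female brain stimulation.

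With library totals 7 genes called higher in stimulated spleen had log2 changes below 0: Srsf2 (-0.02), Srsf5 (-0.002), Hnrnpa2b1 (-0.037), Hnrnpk (-0.10), Hnrnpu (-0.13), Hnrnpd (-0.20) and Hnrnpa3 (-0.20). Leaving out 1 library at a time gave 14 to 17 calls for spleen stimulation, 2 to 6 for unstimulated tissue, 0 to 1 for female brain stimulation, 5 to 10 for male brain stimulation, 5 to 12 for stimulated tissue and 7 to 13 for the interaction, and 0 for age and both sex comparisons. The calls over all genes moved too, for male brain stimulation from 2108 of 6602 to 2884 of 8700. The limit that a count of 0 allows, 3 counts, ran from 0.12 CPM in the deepest library to 2.59 CPM in the shallowest.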
